A study of Mus musculus with 6 samples.

Results

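Macroautophagy is the route by which a cell wraps part of its own contents in membrane and delivers it to the lysosome. A kinase complex built on ULK1 or ULK2 starts the process, and a lipid kinase complex built on Beclin 1 marks the site where the membrane forms. The membrane grows with lipid from the endoplasmic reticulum, carried by ATG2 proteins and rearranged by scramblases. A chain of conjugating enzymes then attaches small ATG8 proteins, the LC3 and GABARAP families, to that membrane. Cargo receptors such as p62 hold ubiquitin-tagged material and bind ATG8 as well, and tethers and a SNARE protein bring about fusion with the lysosome. In macrophages the same machinery also takes part in the handling of engulfed microbes and of damaged organelles.

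The transcripts of 45 genes of this machinery, of 49315 genes in the deposited table, were examined by step. They were taken by gene symbol from a fixed list, and each of the 45 was found. The list holds 5 genes of initiation, 6 of nucleation, 8 of membrane supply, 10 of the ATG8 conjugation chain, 5 ATG8 genes, 8 cargo receptors and their partners, and 3 genes of fusion. RNA was sequenced from RAW264.7, an established macrophage-like mouse line that carried no engineered change in either group (labelled WT). Cells received SKI-II, a small molecule known as an inhibitor of sphingosine kinases, at 4 μg/mL, or the matching amount of its vehicle DMSO, and were collected after 24 h. Each group had 3 libraries, and a single line was used in all 6. The labels do not say whether the 3 libraries of a group came from separate cultures, so the p-values measure only the spread between these libraries. The comparison asks how the transcript levels of the autophagy machinery differ between treated and vehicle cells.

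The libraries held 12495957 to 17223480 counts with DMSO and 14213950 to 20050677 counts with SKI-II. Mitochondrial genes took 1.07% to 1.25% of the counts with DMSO and 1.38% to 1.71% with SKI-II, and the 10 most counted genes took 6.68% to 8.79% and 9.08% to 11.1%, so both shares were higher in each SKI-II library. The part of these differences in the results was not tested. Replicate 3 of each group lay lowest on the second dimension of a multidimensional scaling plot, which held 12.4% of the variance against 72.2% for the first, and all counts of called members were also taken without both of these. Of 8 macrophage markers, Lyz2, Adgre1 and Itgam fell, by 1.26, 0.92 and 0.93 on the log2 scale, Fcgr1 rose by 2.17, and Cd68, Csf1r, Ptprc and Mertk did not pass the test. Their summed normalized count ranged from 130978 to 195955 with DMSO and from 64829 to 104772 with SKI-II, a difference that lay almost wholly in Lyz2. Without Lyz2 the sum of the other 7 ranged from 40641 to 45382 and from 39826 to 43489. The markers of fibroblasts, epithelium, T cells and B cells were at or near 0 in both groups. The fibroblast markers summed to at most 21.2 normalized counts, the epithelial ones to at most 0.815, the T cell ones to at most 6.71 and the B cell ones to at most 4.77. The neutrophil markers summed to 35.0 to 104 with DMSO and 30.2 to 112 with SKI-II, with Ly6g at 0. Most of this sum was S100a8, at a mean of 68.9 with DMSO and 72.5 with SKI-II. In bulk RNA, a change in the share of cells that express a gene and a change in its level per cell cannot be told apart.

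More of the autophagy genes rose than fell with SKI-II. Of the 44 members that passed the filter on low counts, 15 rose and 2 fell at an adjusted p below 0.05 in the edgeR quasi-likelihood test, adjusted over all 12274 tested genes. That is 34.1% higher and 4.55% lower among the members, beside 18.4% higher and 19.7% lower, or 38.0% in either direction, over all tested genes. The members that rose were Ulk2, Becn1, Wipi1, Wipi2, Wdr45, Vmp1, Tmem41b, Atg4d, Atg10, Map1lc3a, Gabarap, Sqstm1, Calcoco1, Wdfy3 and Epg5, and those that fell were Ambra1 and Plekhm1. The median log2 fold change was 0.20 for the members and 0.0038 for all tested genes, while the median size of the change was 0.34 for the members and 0.41 for all genes. Without Sqstm1, 14 of 43 members rose and 2 fell.

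Large changes were few. A log2 fold change above 1 with an adjusted p below 0.05 was seen for 5 members, Sqstm1, Vmp1, Map1lc3a, Atg4d and Epg5, which is 11.4% of those tested beside 8.28% of all tested genes, and 0 members fell past -1 beside 7.44% of all genes. The SKI-II libraries all lay above the DMSO libraries for 18 members (40.9%) and all below for 4 (9.09%), beside 24.8% and 25.5% of all tested genes. Of the 17 calls, 10 held in each of the 14 other ways of fitting the data, which include leaving out each library in turn. These were Becn1, Wipi2, Wdr45, Vmp1, Atg4d, Map1lc3a, Sqstm1, Calcoco1, Epg5 and Plekhm1. The other 7 were lost in at least 1 of them, and 6 members without a call (Ulk1, Uvrag, Atg2a, Atg2b, Atg16l1 and Map1lc3b) passed in at least 1. With replicate 3 of both groups left out, 17 members rose and 3 fell, and 8 rose past a log2 fold change of 1, while over all genes 2286 rose, 2388 fell and 1087 rose past 1 (against 2255, 2413 and 1016 with all libraries).

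**Figure D1:**
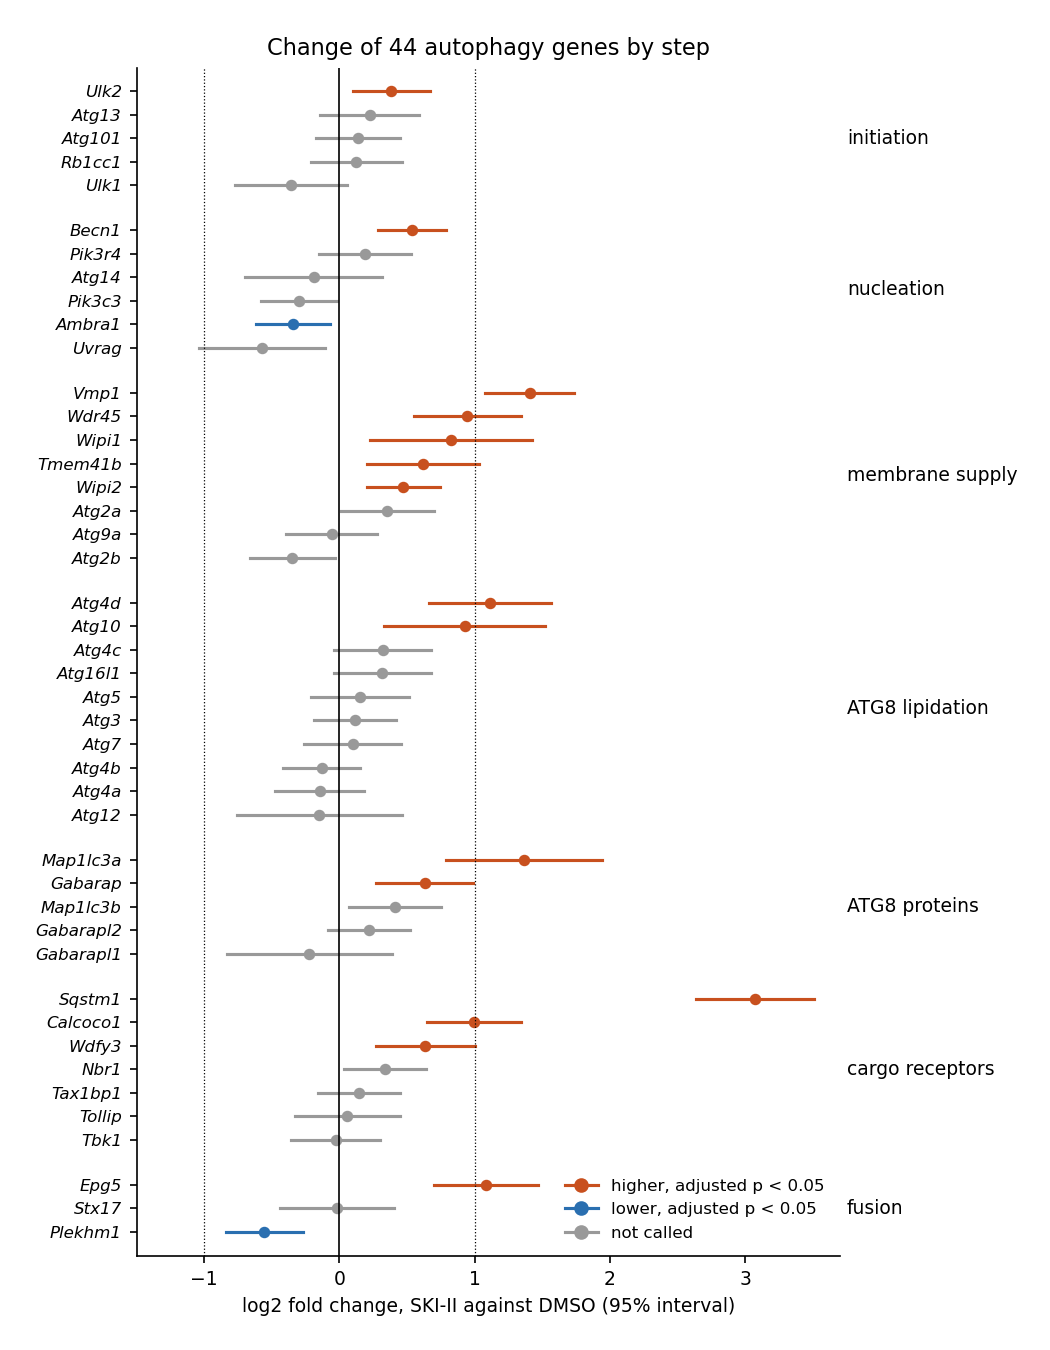
Log2 fold change of SKI-II against DMSO (x axis) for the 44 tested autophagy genes (y axis), ordered by step and within a step by the change; points are edgeR estimates, bars their 95% intervals, and dotted lines mark -1 and 1. Sqstm1 stands alone at 3.07, 4 other genes lie past 1, and the 2 genes called lower, Ambra1 and Plekhm1, both lie within 1 of 0.

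Summed over the members, the normalized count was 47212, 52991 and 58051 in DMSO replicates 1, 2 and 3 and 136313, 120791 and 108824 in the SKI-II replicates. Most of the gap between the groups was Sqstm1, which made up 13.8% to 16.5% of the sum with DMSO and 52.4% to 58.9% with SKI-II. The sum over the other 44 members was 40719, 44428 and 48496 with DMSO and 57969, 49613 and 51766 with SKI-II. These remaining sums also did not overlap between the groups, with the highest DMSO library just below the lowest SKI-II library.

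**Figure D2:**
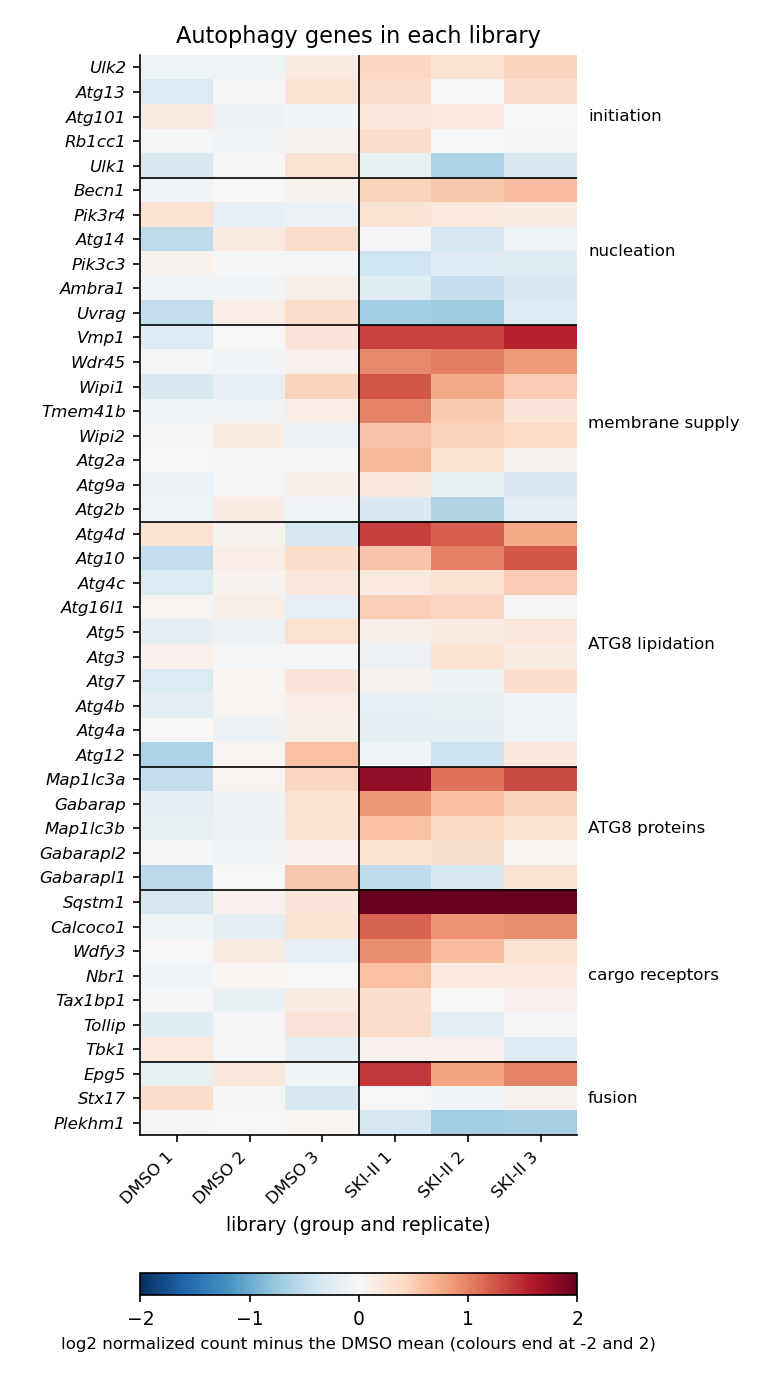
Log2 normalized count of each tested autophagy gene (rows, by step) in each library (columns), minus the mean of the DMSO libraries; red is above and blue below that mean, and colours end at -2 and 2. Sqstm1, Vmp1, Map1lc3a, Atg4d and Epg5 are red in all 3 SKI-II libraries, and Plekhm1 is blue in all 3.

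The ULK kinases open the pathway, in a complex with the scaffold Rb1cc1 (FIP200), Atg13 and Atg101. Of these 5 genes, Ulk2 rose and none fell, a share higher of 20% that is near the 18.4% of all tested genes. Ulk2 (chr11:61775649-61855073, minus strand, GRCm38) had 589, 590.1 and 696 normalized counts in DMSO replicates 1, 2 and 3 and 836, 763 and 849 in the SKI-II replicates. All SKI-II libraries lay above all DMSO libraries, by a log2 fold change of 0.38 (SE 0.13, adjusted p = 0.0387, edgeR). The call was lost when any library other than DMSO replicate 3 was left out and when no filter was used, with an adjusted p of up to 0.165.

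Ulk1, the other kinase of the pair, had 531, 642 and 808 normalized counts with DMSO and 592, 421 and 534 with SKI-II. Here the groups overlapped, and the log2 fold change of -0.36 (SE 0.19, adjusted p = 0.160, edgeR) did not pass; without DMSO replicate 1, the lowest of its group, it was -0.51 with an adjusted p of 0.0490. Rb1cc1, Atg13 and Atg101 had log2 fold changes of 0.12, 0.22 and 0.14 and adjusted p of 0.559, 0.316 and 0.469 in the same fit. The level of Ulk1 relative to Ulk2 was lower in each SKI-II library. The log2 ratio of their counts per kilobase of exon was -0.27, 0.0031 and 0.097 with DMSO and -0.62, -0.98 and -0.79 with SKI-II. The mean ratio was 0.74 lower on the log2 scale with SKI-II (two-sided exact permutation p = 0.10, the smallest that 3 against 3 can give).

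The promoters of the members were searched for the short motifs bound by stress regulators. RefSeq windows of 250 bases before to 50 bases after a start (GRCm38.p6) were at hand for 37 of the 45 members, 43 windows in all, of 32817 windows over all genes. The members without a window, and so not searched, were Rb1cc1, Becn1, Pik3c3, Atg12, Atg16l1, Map1lc3a, Wdfy3 and Epg5. The antioxidant response element TGACNNNGC, bound by Nrf2 with small Maf proteins, was in 7 of the 43 windows, those of Ulk2, Atg13, Map1lc3b, Tax1bp1 and, at 3 different starts, Vmp1, and in 12.4% of all windows. The core TCACGTGA of the CLEAR element, bound by TFEB, was in 1 window, that of Atg3, where it began 72 bases before the start, and in 0.975% of all windows. The amino acid response element TGATGNAA, bound by ATF4,, and the endoplasmic reticulum stress response element were in 0 member windows, and in 3.97% and 0.119% of all. Both strands were searched, and no 2 matches fell in the same window. The window of Sqstm1 held no match to any of these motifs. A match is a description of the letters only, and over 43 windows nothing is read from these counts. The 3 matches of Vmp1, read on the strand of the gene, were GCGCAGTCA beginning 168 bases before the first start, GCTGTGTCA 75 bases before the second and GCACTGTCA 156 bases before the last. Shown here are the 250 bases before the start of 4 called members whose windows lie outside annotated exons, 5′ to 3′ on the strand of the gene, with the match of Ulk2 in capitals and none in the other windows. They lie at chr11:61855093-61855342 (Ulk2, minus strand), chr9:21265035-21265284 (Atg4d, plus strand), chr15:102722179-102722428 (Calcoco1, minus strand) and chr11:103412706-103412955 (Plekhm1, minus strand), the first 3 being genes that rose and the last a gene that fell.
Ulk2: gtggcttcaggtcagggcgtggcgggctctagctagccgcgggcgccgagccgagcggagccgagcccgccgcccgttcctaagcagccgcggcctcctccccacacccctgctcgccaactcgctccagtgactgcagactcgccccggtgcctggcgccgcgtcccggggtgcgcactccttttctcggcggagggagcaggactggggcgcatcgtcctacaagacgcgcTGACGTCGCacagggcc
Atg4d: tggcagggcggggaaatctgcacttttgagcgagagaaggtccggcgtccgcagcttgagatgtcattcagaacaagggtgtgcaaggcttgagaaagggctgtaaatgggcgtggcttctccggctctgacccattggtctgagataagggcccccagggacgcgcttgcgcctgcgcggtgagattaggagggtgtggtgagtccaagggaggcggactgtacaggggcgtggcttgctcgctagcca
Calcoco1: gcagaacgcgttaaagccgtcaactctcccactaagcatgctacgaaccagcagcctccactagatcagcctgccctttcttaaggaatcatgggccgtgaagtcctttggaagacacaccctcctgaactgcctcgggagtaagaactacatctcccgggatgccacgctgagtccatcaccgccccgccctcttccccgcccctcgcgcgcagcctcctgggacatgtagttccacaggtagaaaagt
Plekhm1: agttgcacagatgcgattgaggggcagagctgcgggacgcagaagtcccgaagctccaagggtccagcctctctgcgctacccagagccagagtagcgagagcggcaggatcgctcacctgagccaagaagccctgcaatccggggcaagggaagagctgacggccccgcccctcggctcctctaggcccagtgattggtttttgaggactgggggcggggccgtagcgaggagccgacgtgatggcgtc

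The lipid kinase of the nucleation complex is Pik3c3 (VPS34), with Pik3r4 (VPS15) and Becn1 (Beclin 1) as its core, Atg14 or Uvrag as the subunit that sets where it acts, and Ambra1 as a regulator. Becn1 (chr11:101285952-101302286, minus strand) had 1302, 1344 and 1431 normalized counts with DMSO and 1856, 1967 and 2082 with SKI-II. The groups were well apart and the replicates close, with a log2 fold change of 0.53 (SE 0.11, adjusted p = 0.00456, edgeR). Exons of Cntd1 on the opposite strand overlap 43.9% of the exon length of Becn1, and Cntd1 itself was at 6.93 to 30.1 normalized counts. The part of this overlap in the result was not tested.

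Ambra1 was the gene of nucleation called lower, with 1397, 1411 and 1596 normalized counts with DMSO and 1244, 1052 and 1171 with SKI-II. Its groups did not overlap, and the log2 fold change was -0.35 (SE 0.12, adjusted p = 0.0490, edgeR), a call that was lost in 8 of the 14 alternatives, among them DESeq2, and on leaving out replicate 2 or replicate 3 of either group (adjusted p up to 0.182). Uvrag (chr7:98885021-99141141, minus strand) had the largest negative value of all members but a wide spread. It stood at 1517, 2330 and 2690 normalized counts with DMSO and 1322, 1292 and 1774 with SKI-II, so that DMSO replicate 1 lay inside the SKI-II range. The log2 fold change was -0.57 (SE 0.21, adjusted p = 0.0539, edgeR), and without DMSO replicate 1 it was -0.79 with an adjusted p of 0.00413. It was called lower in 7 of the 14 alternatives, among them DESeq2 (adjusted p = 0.0347), and not in the other 7, among them limma-voom, RLE scaling and leaving out any of 4 libraries, with an adjusted p of up to 0.171.

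The lipid kinase itself, Pik3c3, had 489 to 547 normalized counts with SKI-II and 627 to 681 with DMSO, without overlap, and its log2 fold change of -0.30 had an adjusted p of 0.0856 in edgeR. Pik3r4 and Atg14 were at 0.19 and -0.19 with adjusted p of 0.358 and 0.541. Among the 6 genes of nucleation, 1 therefore rose and 1 fell, 16.7% each way and near the 18.4% and 19.7% of all tested genes, and the median log2 fold change was -0.25.

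In membrane supply 5 of 8 members were called higher (62.5%, beside 18.4% of all tested genes), with a median log2 fold change of 0.54. On leaving out replicate 1 or 2 of either group, 3 of them were. It holds the lipid transfer proteins Atg2a and Atg2b, the scramblases Atg9a, Vmp1 and Tmem41b, and the phosphoinositide-binding proteins Wipi1, Wipi2 and Wdr45. Vmp1 (chr11:86583865-86683836, minus strand) had 1145, 1361 and 1643 normalized counts with DMSO and 3490, 3497 and 3996 with SKI-II. Each SKI-II library was above each DMSO library by a wide margin, 2.65-fold in the fit (log2 fold change 1.40, SE 0.15, adjusted p = 9.62e-05, edgeR), the second-largest change of the members. Its exons also overlap the gene of a microRNA, Mir21a, on the same strand. The row of Mir21a was at 0 counts in each library, and the part of this overlap in the result was not tested.

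Tmem41b, which works with Vmp1, had 574, 567 and 656 normalized counts with DMSO and 1188, 860 and 708 with SKI-II. SKI-II replicate 1 was far above the others, and the log2 fold change of 0.61 (SE 0.19, adjusted p = 0.0255, edgeR) was 0.38 without it and lost its call. Another scramblase, Atg9a, which travels in vesicles, was at a log2 fold change of -0.06 with an adjusted p of 0.793. Of the 3 scramblase genes, 2 were called higher, a count too small to set beside the share of all genes.

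The 3 phosphoinositide-binding members were all called higher, a count too small to set beside the share of all genes. Wdr45b, outside the members and listed with the other regulators of phosphoinositides, did not pass (log2 fold change -0.17, adjusted p = 0.516, edgeR). Wipi2, which recruits the conjugation machinery, was at 1039 to 1241 normalized counts with DMSO and 1487 to 1666 with SKI-II (log2 fold change 0.47, SE 0.12, adjusted p = 0.0122, edgeR). Wdr45 was at 109 to 120 and 204 to 231 (0.95, SE 0.18, adjusted p = 0.00255). Wipi1 was at 88.4 to 148 and 155 to 256 (0.82, SE 0.27, adjusted p = 0.0354). For none of these 3 did the groups overlap, but the nearest libraries of Wipi1 were only a few counts apart. The calls of Wipi1 and Tmem41b were lost when any of replicates 1 and 2 of either group was left out, with adjusted p of up to 0.144 and 0.0968, while those of Wdr45, Wipi2 and Vmp1 held.

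The genes of the lipid transfer proteins had values of opposite sign. Atg2a had 818, 833 and 806 normalized counts with DMSO and 1278, 1010.5 and 856 with SKI-II, and Atg2b had 1816, 2140.4 and 1834 with DMSO and 1576, 1270.0 and 1702 with SKI-II. In each case the groups did not overlap, Atg2a lying higher and Atg2b lower with SKI-II, but neither passed the edgeR test (log2 fold changes 0.36 and -0.35, adjusted p = 0.0966 and 0.0760). Their log2 ratio per kilobase of exon was -0.34, -0.56 and -0.38 with DMSO and 0.50, 0.48 and -0.18 with SKI-II (two-sided exact permutation p = 0.10). Without SKI-II replicate 3, Atg2a and Atg2b were both called, at 0.48 and -0.44.

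**Figure D3:**
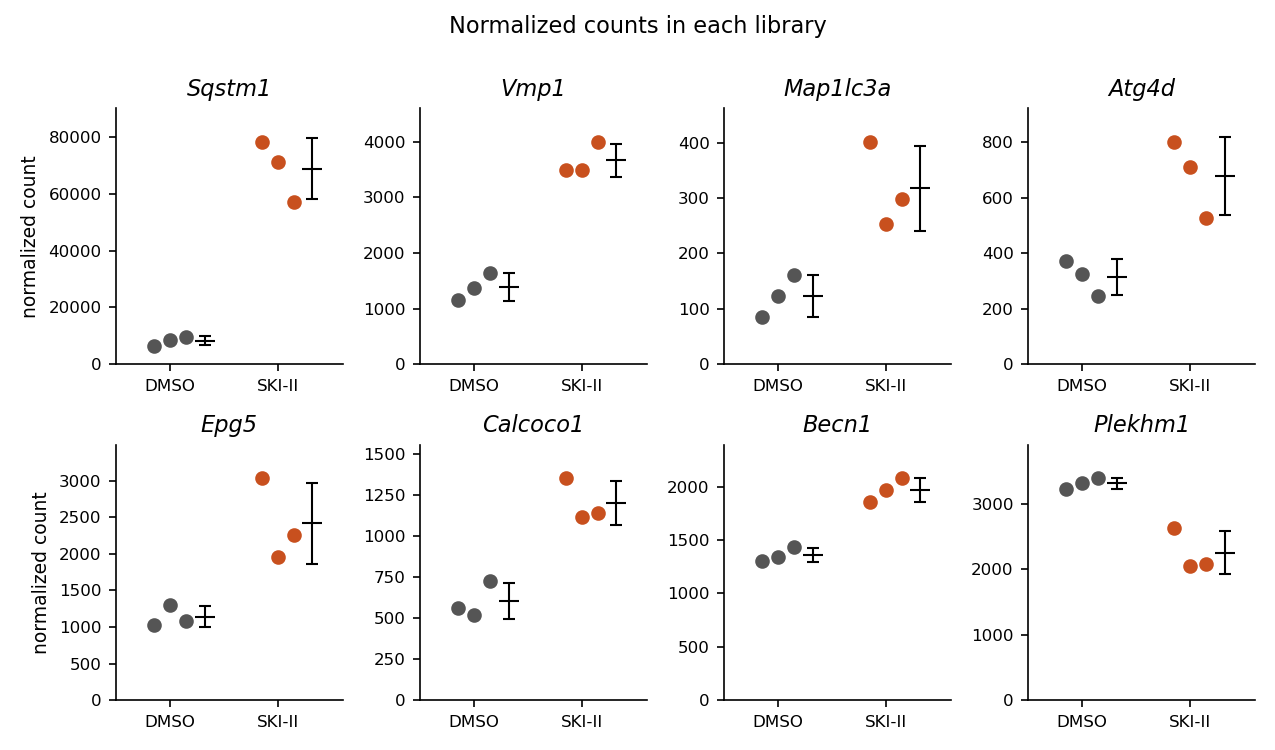
Normalized counts (y axes, linear from 0) of 8 called autophagy genes in the DMSO (grey) and SKI-II (orange) libraries; points are libraries in replicate order and bars the mean ± SD of 3. The groups do not overlap in any of the 8 panels, 7 genes being higher and Plekhm1 lower with SKI-II.

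In the conjugation chain 2 of 10 genes, Atg4d and Atg10, rose and none fell, a share of 20% that is near the 18.4% of all tested genes. Atg7 is the E1-like enzyme, Atg3 and Atg10 are the E2-like enzymes, Atg5, Atg12 and Atg16l1 form the E3-like complex, and the 4 Atg4 proteases trim ATG8 proteins and release them from membrane. Atg4d (chr9:21265293-21277772, plus strand) had 373, 325 and 245 normalized counts with DMSO and 802, 711 and 527 with SKI-II. The lowest SKI-II library was above the highest DMSO library, and the fit gave a 2.16-fold rise (log2 fold change 1.11, SE 0.20, adjusted p = 0.00222, edgeR). The other proteases, Atg4a, Atg4b and Atg4c, were at log2 fold changes of -0.14, -0.13 and 0.32, with adjusted p of 0.478, 0.457 and 0.144.

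The rise of Atg4d stood beside a rise of Kri1, whose exons on the opposite strand cover 1405 bases, 19.3%, of the exon length of Atg4d. Kri1 had 652 to 977 normalized counts with DMSO and 1259 to 1554 with SKI-II (log2 fold change 0.70, SE 0.17, adjusted p = 0.00888, edgeR). No source used here gives the strand setting of the counting, and reads from the shared stretch cannot be assigned to either gene. Its part in the result was not tested.

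Atg10 (chr13:90935356-91223968, minus strand), the E2-like enzyme for Atg12, had 71.9, 111 and 129.7 normalized counts with DMSO and 149.9, 204 and 239 with SKI-II. The groups did not overlap, and the log2 fold change was 0.93 (SE 0.27, adjusted p = 0.0209, edgeR), a call lost on leaving out replicate 1 or 2 with DMSO, or replicate 2 or 3 with SKI-II (adjusted p up to 0.0671). Its substrate Atg12 varied widely within the groups, with 432, 696 and 1004 normalized counts with DMSO and 643, 505 and 774 with SKI-II. The spread within DMSO exceeded the gap between the groups (log2 fold change -0.15, SE 0.27, adjusted p = 0.701). The remaining genes, Atg3, Atg5, Atg7 and Atg16l1, had log2 fold changes of 0.12, 0.15, 0.10 and 0.32, none past the test, and Atg16l1 was called without SKI-II replicate 3 only (0.45, adjusted p = 0.0475).

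Of the 5 ATG8 genes, the proteins that coat the growing membrane and bind cargo receptors, 2 rose (40%, beside 18.4% of all tested genes) and none fell (beside 19.7%). Map1lc3a (chr2:155276297-155278073, plus strand), which encodes LC3A, had 85.5, 124 and 160.4 normalized counts with DMSO and 402, 253 and 298 with SKI-II. The lowest SKI-II library was well above the highest DMSO library, and the fit gave a 2.57-fold rise (log2 fold change 1.36, SE 0.26, adjusted p = 0.00285, edgeR). Gabarap (chr11:69991143-69994951, plus strand), the founding member of its family, had 2546, 2666 and 3493 normalized counts with DMSO and 5225, 4361 and 3898 with SKI-II. Its groups did not overlap either (log2 fold change 0.63, SE 0.16, adjusted p = 0.0121), though without DMSO replicate 2 the adjusted p was 0.0670.

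Map1lc3b, which encodes LC3B, the protein most used to follow autophagy, narrowly missed the threshold. It had 719.7, 734 and 959 normalized counts with DMSO and 1192, 1057 and 962 with SKI-II, with the highest DMSO and the lowest SKI-II library nearly level (log2 fold change 0.41, SE 0.15, adjusted p = 0.0558, edgeR). It passed in 6 of the 14 alternatives, with adjusted p between 0.00756 and 0.208 over all of them. Gabarapl1 had 905, 1313 and 1925 normalized counts with DMSO and 923, 1034 and 1591 with SKI-II, and the groups spanned nearly the same range (log2 fold change -0.22, SE 0.27, adjusted p = 0.560). Gabarapl2 was at 0.22 with an adjusted p of 0.229.

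Compared per length, the order of the ATG8 transcripts was led by Gabarap in both groups. The levels were 98.1 ± 17.4 CPM per kilobase of exon with DMSO and 152 ± 22.8 with SKI-II for Gabarap (SD, n = 3). They were 6.51 ± 1.98 and 16.8 ± 4.03 for Map1lc3a. On the same scale, the means of Gabarapl1, Gabarapl2 and Map1lc3b were 42.8, 13.2 and 6.67 with DMSO and 36.6, 15.4 and 8.88 with SKI-II. On this scale LC3A transcripts were level with LC3B transcripts in the DMSO cells and above them in each SKI-II library. This order rests on the exon lengths used, 1181 bases for Map1lc3a and 7517 for Map1lc3b. Before division by length it is reversed, with mean normalized counts of 804 for Map1lc3b and 123 for Map1lc3a with DMSO and 1070.4 and 318 with SKI-II. The log2 ratio of Map1lc3b to Map1lc3a per kilobase of exon was 0.40, -0.10 and -0.090 with DMSO and -1.10, -0.61 and -0.98 with SKI-II (two-sided exact permutation p = 0.10).

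As a share of the 5 ATG8 transcripts, counted per kilobase of exon, Map1lc3a was 3.28%, 4.19% and 4.07% with DMSO and 8.40%, 6.12% and 7.20% with SKI-II. Gabarap held 62.5%, 57.8% and 56.7% with DMSO and 70.0%, 67.6% and 60.3% with SKI-II, and Gabarapl1 held 20.4%, 26.1% and 28.6% with DMSO and 11.3%, 14.7% and 22.6% with SKI-II. Only the share of Map1lc3a did not overlap between the groups (two-sided exact permutation p = 0.10), and its mean was 3.40 percentage points higher with SKI-II, or 1.99 without division by exon length. The shares of Gabarap, Gabarapl1 and Gabarapl2 each had p = 0.20, and that of Map1lc3b p = 0.60, in the same exact test. With 3 libraries against 3 this test cannot go below 0.10, and adjusted over the 11 shares and ratios compared, the smallest p was 0.22.

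**Figure D4:**
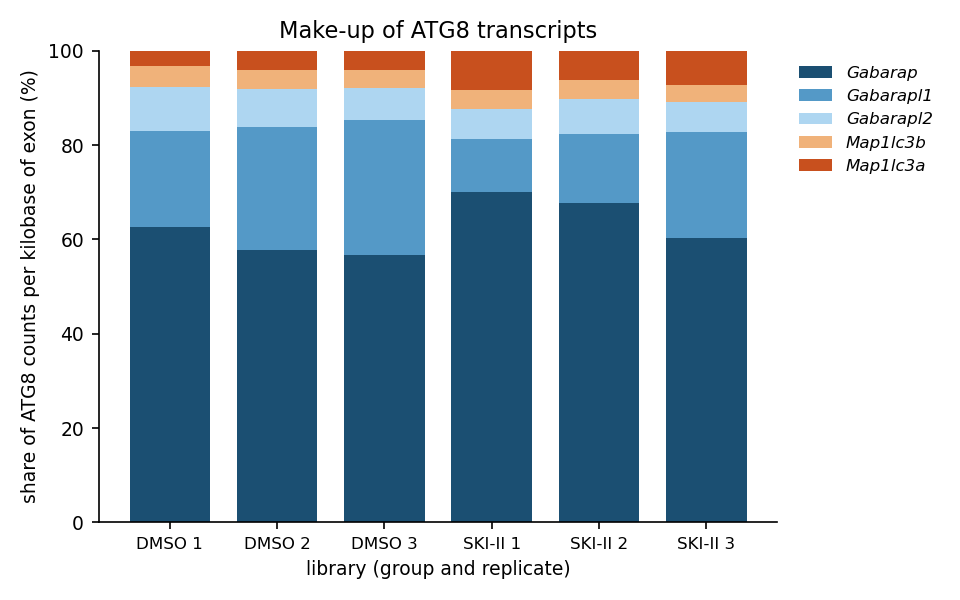
Share of each ATG8 gene (stacked bars, y axis in %) in the summed counts per kilobase of exon of the 5 ATG8 genes, for each library (x axis). Gabarap holds 56.7% to 70.0% of the sum in each library, and the Map1lc3a slice at the top is 3.28% to 4.19% with DMSO and 6.12% to 8.40% with SKI-II.

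Among the cargo receptors and their partners, 3 of the 7 tested genes rose (42.9%, beside 18.4% of all tested genes) and none fell (beside 19.7%). Sqstm1 (chr11:50199366-50210827, minus strand) encodes p62, which binds ubiquitin and ATG8 and also holds Keap1, the brake on Nrf2. It was the most abundant transcript of the list per length in either group, at 152 ± 29.0 CPM per kilobase of exon with DMSO and 1279 ± 201 with SKI-II (SD, n = 3). Its normalized counts were 6493, 8563 and 9555 with DMSO and 78344, 71178 and 57058 with SKI-II. The lowest SKI-II library was far above the highest DMSO library, and the fold was 8.39 (log2 fold change 3.07, SE 0.20, adjusted p = 1.2e-05, edgeR). Over the 14 alternatives the log2 fold change stayed between 2.91 and 3.31. Mrnip, on the opposite strand, overlaps 17.3% of the exon length of Sqstm1 and fell, from 90.1 to 140.3 normalized counts with DMSO to 42.0 to 65.2 with SKI-II (log2 fold change -1.04, SE 0.27, adjusted p = 0.0142).

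Nbr1, a receptor built like p62, did not follow it to the same extent. It had 1755, 1878 and 1831 normalized counts with DMSO and 2746, 2076 and 2086 with SKI-II, without overlap, but the log2 fold change of 0.34 (SE 0.14, adjusted p = 0.0748, edgeR) did not pass. The log2 ratio of Sqstm1 to Nbr1 per kilobase of exon was 2.92, 3.22 and 3.42 with DMSO and 5.87, 6.13 and 5.81 with SKI-II. The mean of this ratio was 2.75 higher with SKI-II (two-sided exact permutation p = 0.10), the largest shift of the 6 ratios compared.

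The other receptor genes to rise were Calcoco1 and Wdfy3. Calcoco1 (chr15:102706777-102722178, minus strand), a receptor for the endoplasmic reticulum and the Golgi, had 562, 521 and 726 normalized counts with DMSO and 1353, 1113 and 1136 with SKI-II. The SKI-II libraries were all higher (log2 fold change 0.99, SE 0.16, adjusted p = 0.000986, edgeR). Wdfy3 (ALFY), a large scaffold for the clearance of protein aggregates, had 2328, 2617 and 2084 normalized counts with DMSO and 4433, 3595 and 2891 with SKI-II. Its groups did not overlap (0.64, SE 0.17, adjusted p = 0.0132), but without SKI-II replicate 1, its highest library, the log2 fold change was 0.46 with an adjusted p of 0.0531.

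The remaining genes of this step showed small differences. Tbk1, the kinase that phosphorylates cargo receptors, had 1207, 1048 and 939.7 normalized counts with DMSO and 1124, 1122 and 886 with SKI-II, overlapping throughout (log2 fold change -0.03, SE 0.15, adjusted p = 0.896, edgeR). Tax1bp1 and Tollip, both ubiquitin-binding receptors, were at 0.14 and 0.06 with adjusted p of 0.438 and 0.820. Optn, the gene of optineurin, had 0 counts in each library but SKI-II replicate 3, which had 1, and did not pass the filter on low counts.

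Of the 3 genes of fusion, 1 rose and 1 fell, counts too small to set beside the shares of all genes. Epg5 (chr18:77938465-78035013, plus strand), a tether between autophagosomes and lysosomes, had 1028, 1306 and 1086 normalized counts with DMSO and 3038, 1963 and 2251 with SKI-II. Each SKI-II library was above each DMSO library, 2.12-fold in the fit (log2 fold change 1.08, SE 0.17, adjusted p = 0.00109, edgeR). Plekhm1 (chr11:103364275-103412687, minus strand), an adaptor that links Rab7, ATG8 and the HOPS tethering complex, had 3227, 3313 and 3398 normalized counts with DMSO and 2631, 2052 and 2086 with SKI-II. It was lower in each SKI-II library (log2 fold change -0.55, SE 0.13, adjusted p = 0.00750), the fall that held in all 14 alternatives. Stx17, the SNARE protein of the autophagosome, was at -0.02 with an adjusted p of 0.956.

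**Figure D5:**
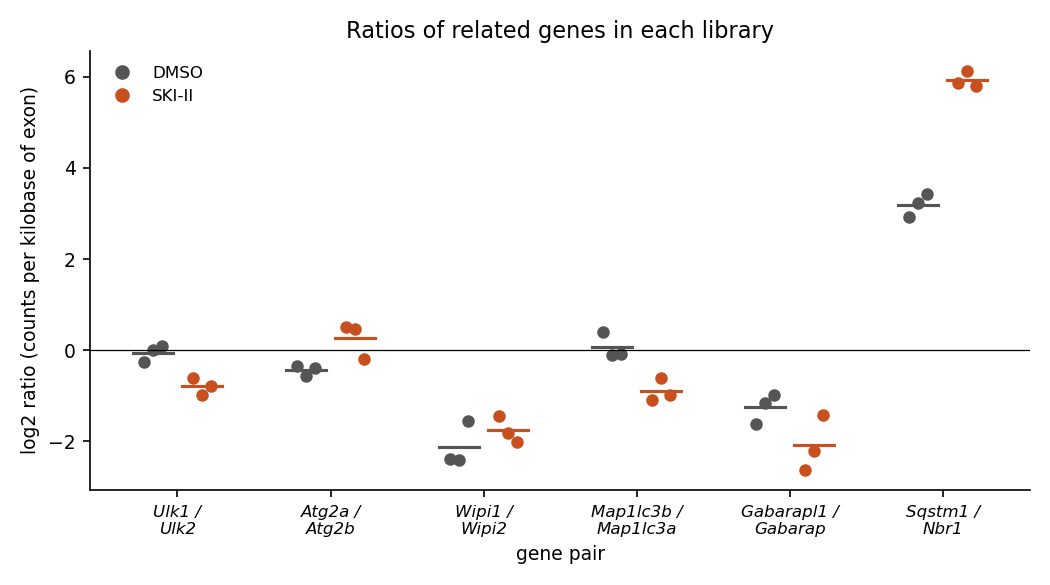
Log2 ratio of counts per kilobase of exon (y axis) for 6 gene pairs (x axis) in the DMSO (grey) and SKI-II (orange) libraries; points are libraries and short lines group means. The groups do not overlap for Ulk1/Ulk2, Atg2a/Atg2b, Map1lc3b/Map1lc3a and Sqstm1/Nbr1, and they overlap for Wipi1/Wipi2 and Gabarapl1/Gabarap.

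Other genes of the pathway, 67 that regulate or extend this machinery and were listed by role, moved in both directions about equally. Of the 63 tested, 10 rose (15.9%) and 11 fell (17.5%), beside the 18.4% and 19.7% of all tested genes, with a median log2 fold change of 0.05. Among 18 nutrient and energy kinases and their partners, Akt1s1, Ddit4 and Sesn2 rose and Mtor, Deptor, Rheb, Prkag2 and Sesn1 fell. Among 15 regulators of the lipid kinase complexes and of phosphoinositides, Bcl2l1, Trp53inp2 and Dapk1 rose and Mtmr14 fell. Among 16 organelle-selective receptors, Retreg1, a receptor for the endoplasmic reticulum, rose, and Phb2 and Atl3 fell. Among 14 other tethers and SNAREs, Vamp7, Tecpr1 and Rilp rose and Vps11, Vps16 and Vps33a fell. The last 3 are subunits of the HOPS complex, of which the list holds 6. The others, Vps18, Vps39 and Vps41, did not pass, at log2 fold changes of -0.18, -0.07 and 0.19, and all SKI-II libraries lay above the DMSO libraries for Vps41.

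Of these 21 calls, 12 held in each alternative that tested the gene and 9 did not. The 12 include Rilp, which passed the filter on low counts through the SKI-II libraries. Prkag2 (adjusted p = 0.0486, edgeR) was lost in 12 of 14 alternatives, DESeq2 and every left-out library among them. Mtor, Rheb, Akt1s1, Retreg1, Vamp7, Vps11 and Atl3 were each lost without DMSO replicate 2, and all of these but Atl3 also without SKI-II replicate 2. Akt1s1, Retreg1 and Vamp7 were lost without DMSO replicate 1 too, Akt1s1, Retreg1 and Tecpr1 without SKI-II replicate 1, Vps11 without DMSO replicate 3 and Retreg1 without SKI-II replicate 3.

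Of these other genes, 3 passed the test with a log2 fold change above 1 (4.76%, beside 8.28% of all tested genes) and 0 with one below -1 (beside 7.44%). Bnip3 and Prkab2 had log2 fold changes of 1.12 and 1.10 but did not pass (adjusted p = 0.0685 and 0.0524, edgeR), and were called in 5 and 6 of the 14 alternatives, Prkab2 also by DESeq2. Ddit4, an inhibitor of mTORC1 induced by stress, had 443, 336 and 663 normalized counts with DMSO and 1650.4, 1000.0 and 889.7 with SKI-II (log2 fold change 1.29, SE 0.28, adjusted p = 0.00548, edgeR). Dapk1, a kinase that phosphorylates Beclin 1, had 259, 289 and 239.6 with DMSO and 542, 538 and 546 with SKI-II (1.05, SE 0.14, adjusted p = 0.000398). Rilp, a partner of Rab7, had 9.71, 7.58 and 6.93 with DMSO and 43.6, 41.0 and 35.9 with SKI-II (2.29, SE 0.37, adjusted p = 0.000925). The raw counts of Rilp were 10, 6 and 7 with DMSO and 39, 43 and 44 with SKI-II. Rilp thus passed the filter on low counts through the SKI-II libraries, and its calls are no independent test. It was not tested where at least 10 counts in every library were asked for. The counts of genes that rose and that rose past 1 include it. In all 3 the groups did not overlap, and the SKI-II libraries of Dapk1 were nearly level with each other. Mtor itself, the kinase that holds autophagy back when nutrients are plentiful, was at 1985 to 2283 with DMSO and 1473 to 1703 with SKI-II (-0.42, SE 0.12, adjusted p = 0.0180), a call with an adjusted p of up to 0.0669 where it was lost.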

How the data were processed

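Poly(A)-selected RNA from 6 RAW264.7 samples, 3 with DMSO and 3 with SKI-II, was sequenced, and the groups were taken from the sample labels. The table used here, deposited by the authors, holds raw read counts per Ensembl gene for each library. According to the submitters' processing notes, Trimmomatic 0.36, STAR 2.5.2b, featureCounts from Subread 1.5.2 and DESeq2 were used. Build, annotation release and strand setting were not given in the sources used here, and the library kit named in the labels is not described as strand-marking, so reads of genes that overlap on opposite strands cannot be told apart. Mapping to near-identical copies may also be split, as for Atg4a and Atg4a-ps, which share 51.2% of the 50-base words of Atg4a, although the copy had at most 3 counts.

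Symbols, positions and exon lengths came from GENCODE M21 (GRCm38), which named 49056 of 49315 identifiers, and promoter windows from RefSeq (GRCm38.p6). The members and the lists were chosen with earlier results of these data known. Counts were tested with edgeR 4.0.16 in R 4.3.3 (quasi-likelihood F test, TMM scaling, filter by expression at 10 counts or more, 15 in total, Benjamini-Hochberg adjustment over 12274 genes), with calls at an adjusted p below 0.05. To normalize, each count was scaled from the effective library size after TMM to the mean effective size of 16042438. CPM per kilobase divides by the length of merged exons. Standard errors used the fitted weights and the moderated dispersion. Libraries of a group differed beyond sampling noise (chi-square per degree of freedom 15.4 to 58.1), and each was used as 1 replicate. This spread does not show that they came from separate cultures. Shares and ratios were compared by exact permutation tests in SciPy 1.17.1. Values in each library are given for members past a log2 fold change of 1 and for the largest rise and fall of each step, and for some others, chosen after their values were seen. The alternatives were DESeq2 1.42.0, limma-voom (limma 3.58.1), RLE scaling, library size alone, no filter, at least 10 counts in every library, the replicate number as a block, each library left out in turn and, added after seeing the data, replicate 3 of both groups left out. The programs were tested on simulated counts. Figures were drawn with matplotlib 3.10.9.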

Additional observations from a re-analysis of the deposited data

How the results depend on the processing

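No member called in any of the fits changed sign between them. Leaving out each library in turn gave 10 to 16 members higher and 1 to 4 lower, against 15 and 2, and 4 to 7 past a log2 fold change of 1, against 5. Over all genes the same fits gave 1507 to 2227 higher and 1766 to 2387 lower, against 2255 and 2413. The number of all genes higher past 1 was 819 to 1128, against 1016. The 4 lower were without DMSO replicate 1, and 1 was lower with RLE scaling or on leaving out replicate 2 of either group or replicate 3 with DMSO. With replicate 3 of both groups left out, chosen after seeing the data, 8 members were past 1. Among the other autophagy genes, leaving out a library gave 7 to 14 higher and 6 to 13 lower, the fewest lower being 6 when DMSO replicate 2 and 7 when SKI-II replicate 2 was dropped, against 10 and 11. Fits without a library rest on fewer samples, and the cause was not tested otherwise. The difference in the share of Map1lc3a was 3.40 percentage points per kilobase and 1.99 without division by exon length.

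The replicate numbers matched the libraries only in part, and whether they mark pairs was not tested. Deviations from the group means correlated at 0.24, 0.015 and 0.45 over genes for the same number. SKI-II replicates 1 and 3 correlated best with the DMSO library of the same number, and SKI-II replicate 2 with DMSO replicate 1 (0.28). With the replicate block, 16 members rose and 3 fell, 6 rose past 1 and 0 fell past -1, and 15 other autophagy genes rose and 14 fell. Over all genes the block gave 2765 higher, 2819 lower and 1087 higher past 1, against 2255, 2413 and 1016 without it. Optn, at 1 count in all, is too low to show a difference at this depth.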

Other observations

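Stbd1, a receptor for glycogen, was chosen after its values were seen. It had 0 counts in each DMSO library, whereas the SKI-II libraries held 6, 14 and 18. It did not pass the filter on low counts in the edgeR fit reported here. The 6 alternatives that tested it called it higher, but it was singled out for this pattern and passed a filter only through the SKI-II libraries, so those calls are no independent test. Calcoco2 had 0 counts in each of the 6 libraries, and Prkaa2 and Sesn3 were also below the filter.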
